A study of Mus musculus with 24 samples.

Results

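The MHC class II genes were followed in the mammary tissue of female mice, of the strains BALB/c and SPRET/EiJ, that had received low doses of ionizing radiation (LDIR). A probe was taken when the gene name in the array files was one of H2-Aa, H2-Ab1, H2-Eb1, H2-DMa, H2-DMb1, H2-Oa, H2-Ob, Cd74 or Ciita. This gave 12 probes for 9 genes, out of 55681 probes under 34797 names on the array. The mice received 1 whole-body exposure to 10 cGy of X-rays at 8-9 weeks of age, or were sham-irradiated, and each of the 24 arrays held RNA of 1 sample. BALB/c tissue was collected 2, 4 and 8 weeks after exposure and SPRET/EiJ tissue 4 weeks after exposure, with 3 LDIR and 3 sham arrays at each point, or 8 groups of 3. Both strains are inbred, SPRET/EiJ from the species Mus spretus, so each stands for 1 genotype. The stage of the estrous cycle is not given in the labels. In all groups the tissue was whole mammary gland, and RNA from whole tissue cannot tell apart fewer class II-positive cells from less class II RNA per cell.

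MHC class II molecules present peptides from endocytosed proteins to CD4+ T lymphocytes. H2-Aa with H2-Ab1, and the E alpha chain with H2-Eb1, form the presenting dimers, while Cd74, the invariant chain, escorts new dimers to the endosome. There H2-DM (H2-DMa, H2-DMb1) exchanges the invariant-chain fragment for peptide, and H2-DO (H2-Oa, H2-Ob), found mostly in B lymphocytes, restrains H2-DM. Ciita is the coactivator that switches the set on through conserved promoter elements named the X and Y boxes. In most tissues the genes are read mainly in B lymphocytes, dendritic cells and macrophages, and mammary tissue holds these cells among its epithelium and fat.

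The shared promoter elements can be seen in the reference sequence. RefSeq promoter windows of 300 bases, from 250 before to 50 after the gene start (GRCm38.p6), were at hand for 6 of the 9 genes, all on chromosome 17. The Y box was searched as ATTGG and the X1 part of the X box as CCNAGNNAC, on both strands, and a pair was an X1 match followed within 40 bases by a Y match. The stretches below run 5′ to 3′ on the gene's strand, with every match of these letters that belongs to a pair, or the Y match alone, in capitals.
H2-Oa (chr17:34092293-34092346, plus strand): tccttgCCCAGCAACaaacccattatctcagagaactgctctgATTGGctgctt
H2-Ob (chr17:34238808-34238858, plus strand): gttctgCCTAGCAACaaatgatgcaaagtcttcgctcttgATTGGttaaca
H2-DMb1 (chr17:34153087-34153140, plus strand): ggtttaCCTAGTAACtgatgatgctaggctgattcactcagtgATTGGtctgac
H2-Eb1 (chr17:34305762-34305818, plus strand): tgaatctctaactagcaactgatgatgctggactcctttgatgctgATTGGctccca
H2-Aa (chr17:34287861-34287917, minus strand): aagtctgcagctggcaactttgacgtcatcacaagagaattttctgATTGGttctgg
The X1 and Y matches were 28 bases apart in H2-DMb1 and H2-Oa and 25 bases apart in H2-Ob. Relative to the gene start, the Y match began at -61 in H2-DMb1, -59 in H2-Eb1, -57 in H2-Ob, -48 in H2-Aa and -43 in H2-Oa. Of 32851 windows of this length, 37.4% held a Y match, 17.3% an X1 match and 0.685% a pair. H2-DMa had 2 windows and neither held a pair. One of them held a Y match at -198, farther from the start than in the 5 genes shown. A match is a description of these letters only.

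H2-Ab1 was read by a pair of overlapping probes and H2-Ob by 3 probes. The other 7 genes had 1 probe each. The H2-Ab1 probes share 51 bases and differ by 1 substitution, T51C, counted from 1 at the 5′ end of the first probe. They are shown because H2-Ab1 is polymorphic and the strains are compared through such probes, with the differing base in capitals.
H2-Ab1 probe 1: caaataaacgagacTcagactctg
H2-Ab1 probe 2: caaataaacgagacCcagactctggttatt
The probe 1 and probe 2 values lay close to each other on the 24 arrays, with highest values of 7.64 and 7.65. The array files place them at chr17:34406296-34406355 and chr17:34406305-34406363 (mm9). For each gene the brightest probe over the 24 arrays is given, and the other probes are named where they matter. One H2-Ob probe (chr17:34377309-34377368, mm9) was well above background on 0 of 24 arrays. The Ciita probe was well above background on 23 arrays and the other 10 probes on all 24. Whether any probe carries mismatches to the SPRET/EiJ sequence was not tested, and H2-DMb1 has a near-identical neighbour, H2-DMb2, so its signal is uncertain by that much.

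All levels below are log2 intensities relative to the 75th percentile of the same array, so 0 is that percentile and a step of 1 is a doubling. The 3 arrays of a group were compared with limma, and a probe was called in the LDIR and time comparisons when p was below 0.05 and the change exceeded 1.5-fold. The strain comparisons asked for p below 0.001. Adjusted p-values are Benjamini-Hochberg values over all probes.

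Before any comparison, 3 arrays stood apart from the other 21 in the class II genes. These were sham replicate A and LDIR replicate B of BALB/c at 8 weeks, and LDIR replicate A of SPRET/EiJ. Cd74 read 6.81, 6.89 and 7.82 on them, against 3.66 to 5.37 on the other 21 arrays. H2-Oa read 2.82 to 3.00, against -4.89 to -2.32 elsewhere. Both genes therefore showed no overlap between these arrays and the rest. H2-Ob read 3.53 to 4.49 against a highest value of -0.57 elsewhere, and its second measurable probe read 0.24 to 0.85 against -3.20 to -1.76. H2-DMa, the alpha chain of the peptide exchange factor, read 2.21 to 2.77 against at most 0.91. H2-Aa, H2-Ab1, H2-Eb1 and H2-DMb1 were also above all 21 other arrays. Ciita was the exception, at 1.23 and 0.50 on the BALB/c arrays but at -2.40 on the SPRET/EiJ array. That lay within the range of the other 21, whose upper end BALB/c arrays set, yet above the other 5 SPRET/EiJ arrays, at -4.82 to -3.91. Hence 8 of 9 genes were higher on all 3 arrays, as were 5.11% of all probes, and these arrays were picked from the values, so no test is given.

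**Figure D1:**
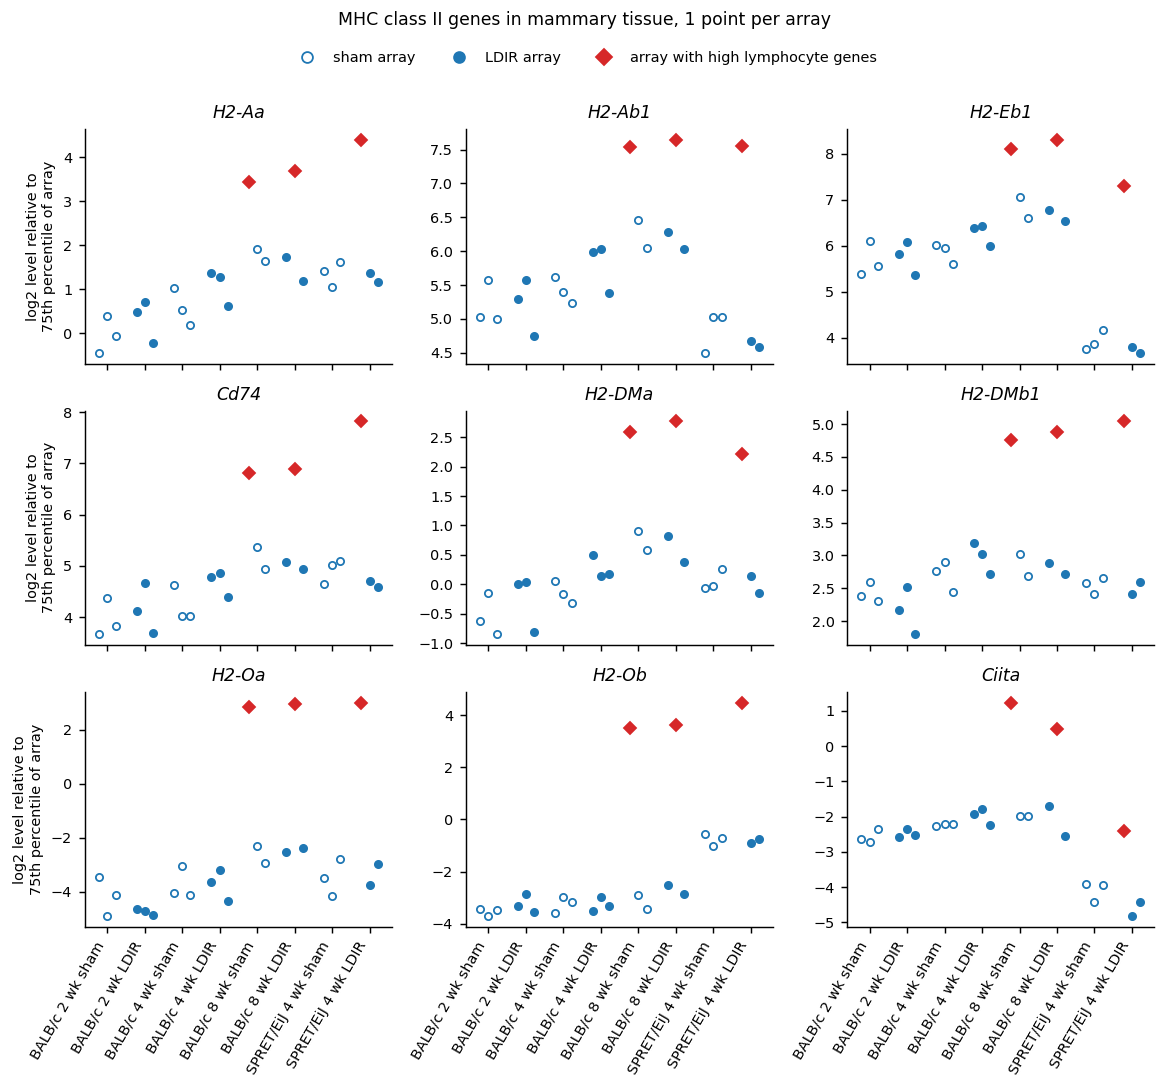
Log2 level of each of the 9 MHC class II genes (vertical axis, relative to the 75th percentile of the array) on the 24 arrays, by group (horizontal axis). Open circles are sham arrays, filled circles LDIR arrays and red diamonds the 3 arrays that stand apart. Cd74 reads 6.81 to 7.82 on the diamonds and at most 5.37 elsewhere, and H2-Eb1 and Ciita are lower on the SPRET/EiJ arrays than on the BALB/c arrays of the same kind.

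Markers of lymphocytes, of lymph node stroma and, in part, of dendritic cells moved with the class II genes on these arrays. The summed level of 8 T lymphocyte genes was 158 to 224 times the 75th percentile on the 3 arrays and 12.6 to 24.4 times on the others, and all 8 genes were higher on the 3. The sum of 9 B lymphocyte genes was 105 to 132 against 5.30 to 30.7, with 7 of 9 higher, Cd79a included. The sum of 4 lymph node stroma genes (Madcam1, Cxcl13, Ccl19, Ltb) was 56.1 to 113 against 1.04 to 3.27, with 4 of 4 higher. Of 9 dendritic cell genes 4 were higher as well (Flt3, Xcr1, Clec9a, Ccr7), with Ccr7 at 4.73 to 5.45 against at most -0.88 and Flt3 at 1.21 to 2.22 against at most -1.42. Of the macrophage genes 1 of 10 (Lyz2) was higher on all 3 arrays, and the summed adipocyte level was lower, at 561 to 753 against 1059 to 2141. The class II sum itself was 639 to 706 on the 3 arrays and 70.8 to 278 on the others. Epithelial Krt8 read 1.91 to 6.67 and fat cell Adipoq 7.26 to 8.56 on the other 21 arrays. The part of lymphoid tissue and dendritic cells in the class II values of the 3 arrays was not tested, so comparisons that hold them are given with and without them.

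**Figure D2:**
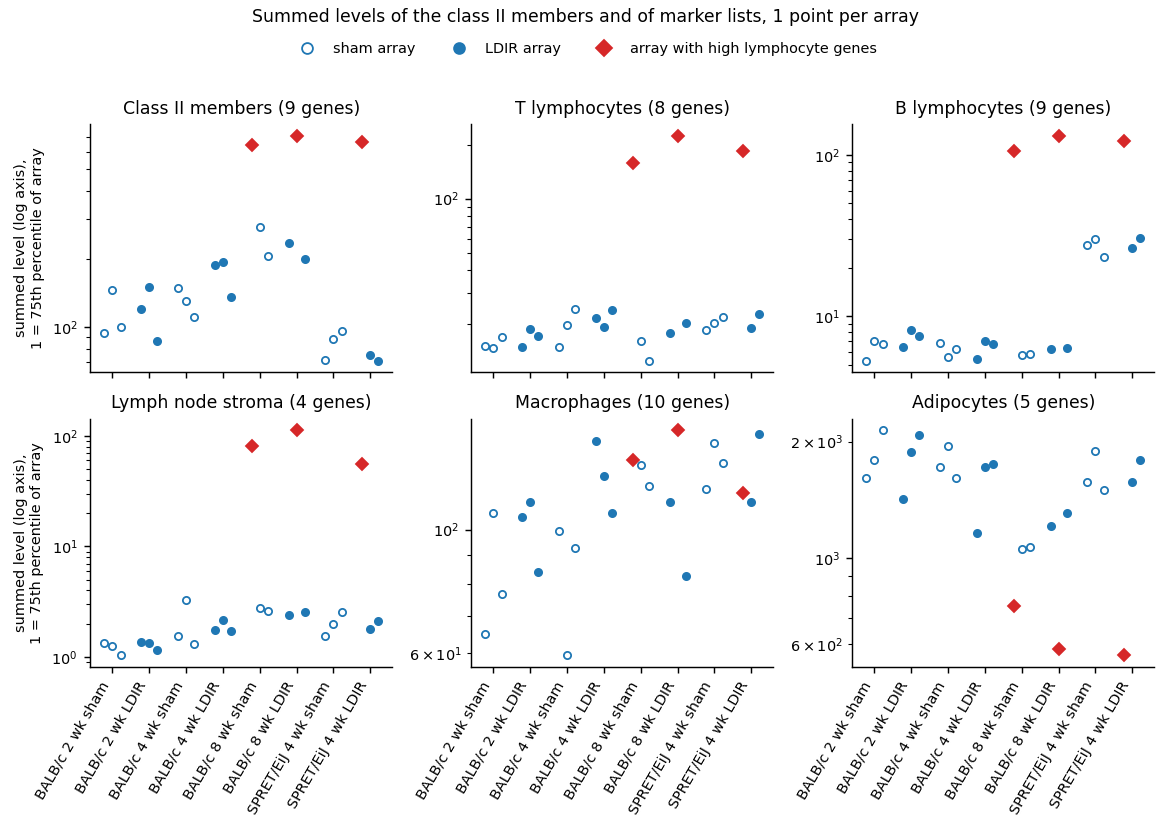
Summed level (vertical log axis, in units of the 75th percentile of the array) of the 9 class II genes and of 5 marker lists on the 24 arrays, by group. On the 3 arrays drawn as red diamonds the T lymphocyte sum is 158 to 224 against at most 24.4 elsewhere, while the adipocyte sum is 561 to 753 against at least 1059.

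The strain comparison asked how the 2 genetic backgrounds differ without LDIR, and it holds none of the 3 arrays. In sham tissue at 4 weeks, Ciita and H2-Eb1 were higher in BALB/c and H2-Ob was higher in SPRET/EiJ. These 3 of 12 probes passed the threshold, where 8.89% of all probes did. H2-Eb1 read 6.02, 5.95 and 5.60 in BALB/c and 3.75, 3.86 and 4.16 in SPRET/EiJ. The groups lay far apart, a difference of 1.93 ± 0.20 (SE, log2), or 3.82-fold (n = 3 and 3, limma, adjusted p = 0.0017). Ciita, the coactivator, read -2.27, -2.21 and -2.21 in BALB/c and -3.91, -4.42 and -3.94 in SPRET/EiJ. It was 3.63-fold higher in BALB/c (1.86 ± 0.19, limma, adjusted p = 0.00171), but the difference was 0.75 with normexp, another background correction that raises dim signals by an offset. The brightest H2-Ob probe went the other way, at -3.59, -2.96 and -3.19 in BALB/c and -0.57, -1.03 and -0.69 in SPRET/EiJ. That was 5.59-fold higher in SPRET/EiJ (-2.48, limma, adjusted p = 0.00114), and with normexp the difference was -1.53. The 2 measurable H2-Ob probes disagreed, because the second differed by only -0.26 (BALB/c minus SPRET/EiJ, 95% interval -1.05 to 0.53). The first was brighter as a mean over all 24 arrays (-1.83 against -2.06), which include the SPRET/EiJ arrays. In BALB/c sham tissue at 4 weeks the second was brighter (-2.43 against -3.25). The choice between them thus rested partly on arrays where the first is high.

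The remaining class II genes differed less between the sham groups, and none of them passed. Cd74, which varies little in sequence between strains, read 4.63, 4.03 and 4.02 in BALB/c and 4.64, 5.03 and 5.09 in SPRET/EiJ. The groups barely missed each other, and BALB/c was -0.69 ± 0.24 relative to SPRET/EiJ (log2, limma, adjusted p = 0.104). With slide as a term it was -1.04 ± 0.61 in the 21-array fit and -0.061 in the 24-array fit. H2-Aa lay in the same direction (-0.78 ± 0.28, adjusted p = 0.105) and H2-Ab1 in the opposite one (0.57 ± 0.22, adjusted p = 0.132). H2-DMa, H2-DMb1 and H2-Oa overlapped between the strains, with differences of -0.20, 0.15 and -0.25. So the genes did not shift as a set: 4 of 9 were higher in BALB/c, and their median difference was -0.20 against -0.08 over all probes. In all, 7 of the 12 probes did not overlap between the strains, and 38% of all probes did not.

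The LDIR arrays at 4 weeks hold other arrays of the same 2 strains. With all 3 SPRET/EiJ LDIR arrays, 0 of 12 class II probes passed by limma, against 5.67% of all probes. At an unadjusted p below 0.05, which 25.1% of all probes reached, there were 2, Ciita (1.90 ± 0.62) and H2-Ob (-4.22 ± 1.39). Without SPRET/EiJ replicate A the spread shrank, and the 3 probes called in sham tissue passed here too, where 7.9% of all probes did. Ciita was then 2.64 ± 0.23 higher in BALB/c (adjusted p = 0.00355), H2-Eb1 2.54 ± 0.21 higher (adjusted p = 0.00314) and H2-Ob -2.45 ± 0.22 (adjusted p = 0.00377). The second measurable H2-Ob probe differed by only -0.08 ± 0.21. Replicate A was left out for its values, which narrows the spread of these same genes, so these p-values are no independent test. On 1 of the 2 SPRET/EiJ arrays left, replicate C, Ciita was not well above background, so its size there is uncertain. H2-Ab1 differed by 1.17 ± 0.26 (limma, adjusted p = 0.0343), short of the strain threshold. Cd74 went from -1.03 ± 0.85 with replicate A to 0.03 ± 0.21 without it. H2-Eb1, Ciita and H2-Ob had the same direction in both treatments, while Cd74 in LDIR tissue lay near 0 without replicate A, at -0.11 ± 0.56 in a fit of 21 arrays with slide as a term.

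**Figure D3:**
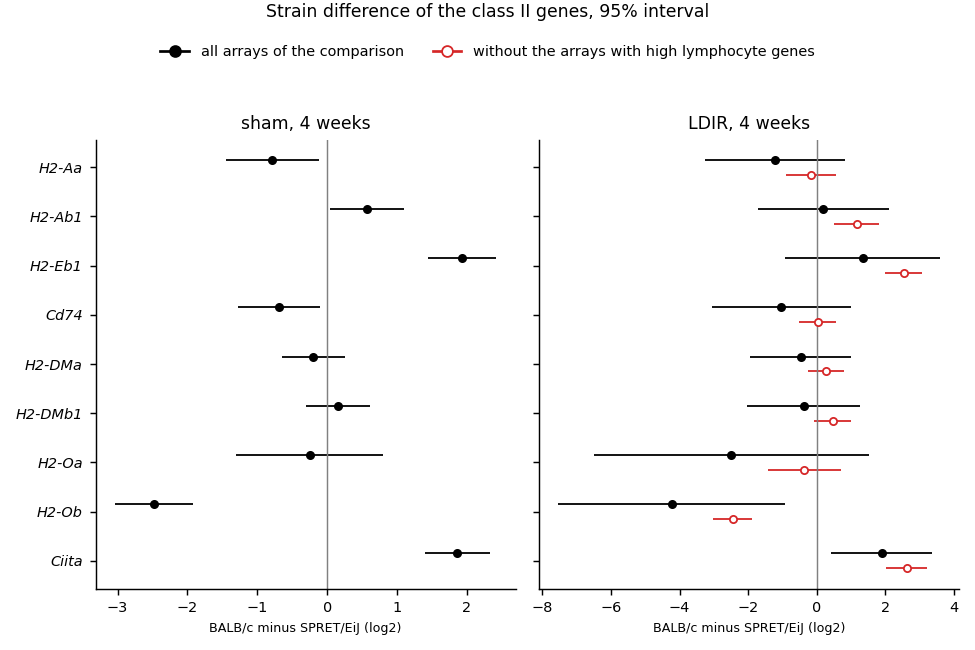
Difference between strains (BALB/c minus SPRET/EiJ, log2, horizontal axis) for each class II gene, with the 95% interval, in sham and in LDIR tissue at 4 weeks. Filled points use all 3 arrays a group and open red points leave out the SPRET/EiJ LDIR array with high lymphocyte genes. H2-Eb1 (1.93) and Ciita (1.86) lie right of 0 and H2-Ob (-2.48) left of 0 in sham tissue.

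Strain and slide were tied. All SPRET/EiJ arrays were on slide 3, the BALB/c 4-week arrays were on slides 1 and 2, and only 8-week BALB/c LDIR replicates B and C link them. In 1 limma fit of all 24 arrays, 0 of the 12 probes passed in sham tissue, where 12.5% of all probes did. The differences were the same (1.93, 1.86 and -2.48), as this fit changes only the spread they are set against. With slide as a term there, 0 of 12 passed, where 2.67% of all probes did, and H2-Ob turned to 0.48, while H2-Eb1 (2.32) and Ciita (2.55) kept their direction. In 1 fit of the 21 arrays without the 3 above, all 3 passed again, where 17.3% of all probes did (H2-Ob adjusted p = 4.74e-07, Ciita 5.24e-06, H2-Eb1 8.1e-06, limma). The arrays were left out for their class II values, which narrows the spread of these same genes, so these p-values are no independent test. With slide as a further term in that fit, H2-Ob alone passed (-2.77 ± 0.52), where 4.34% of all probes did, while H2-Eb1 was 1.43 ± 0.52 and Ciita 1.03 ± 0.41 (limma, adjusted p = 0.125 and 0.161). That term rests on 1 array, BALB/c 8-week LDIR replicate C.

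Other genes of the pathway also differed between the sham groups. Among 25 genes of antigen processing, class II control and costimulation, 1 passed the threshold, Ctsb, a lysosomal protease, which was -1.30 ± 0.21 in BALB/c relative to SPRET/EiJ. At an adjusted p below 0.05, which 18.8% of all probes reached, 5 were higher in BALB/c and 4 lower. The higher ones included the E alpha locus probe H2-Ea-ps (1.82 ± 0.37), H2-Eb2 and Ifng, the cytokine that induces Ciita. In the SPRET/EiJ sham group, 0 of 3 arrays read H2-Eb2 or Ifng well above background. Set against the lowest detected level there, H2-Eb2 was at least 2.21-fold and Ifng at least 3.12-fold higher in BALB/c. Their adjusted p-values (limma, 0.0222 and 0.0337) belong to the measured differences, not to these bounds. The lower ones included Ctsl (-1.75 ± 0.42) and Ifi30, a lysosomal thiol reductase (-0.95 ± 0.17). Of 10 macrophage genes 9 were lower in BALB/c and 0 passed, and of 9 B lymphocyte genes 1 was called higher (Cd79b) and 2 lower (Cd79a, Cr2). Of 9 dendritic cell genes 2 were called higher in BALB/c (Itgax by 2.62 ± 0.44 and Clec9a by 2.37 ± 0.26), and of 5 epithelial genes 5 were higher and 0 called, with a median of 1.54. The B lymphocyte sum was 5.59 to 6.79 in BALB/c and 23.2 to 30.3 in SPRET/EiJ. The mean log2 level of the 9 B lymphocyte genes was -2.74 to -2.41 in BALB/c and -2.19 to -1.88 in SPRET/EiJ. Their median difference was -0.08, as over all probes, with single genes from -5.63 to 1.49. Of these 9 genes 3 were higher in BALB/c. The part of these cells in the strain differences was not tested.

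LDIR was compared with sham within each strain and time. No class II probe passed in any of these 4 comparisons. At 2 weeks in BALB/c, 0 of 12 probes were called, against 3.05% of all probes. Cd74 read 4.12, 4.67 and 3.69 after LDIR and 3.66, 4.38 and 3.82 in sham, so the groups overlapped (0.20 ± 0.31, 95% interval -0.55 to 0.95). Ciita differed by 0.08 ± 0.16, with an interval of -0.31 to 0.48. H2-Oa had the lowest value, -0.58 ± 0.36 (limma, adjusted p = 0.869), with the smallest unadjusted value of the 12. The 9 genes had a median difference of 0.08, and 7 of 9 were above 0. By replicate letter, which the labels do not give as pairs, H2-DMa was higher after LDIR in each of A, B and C (0.0046, 0.035 and -0.81 against -0.62, -0.15 and -0.85). H2-DMb1 was lower in each (2.17, 2.52 and 1.80 against 2.38, 2.60 and 2.31).

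At 4 weeks in BALB/c, the class II genes read somewhat above sham after LDIR without passing. Of 12 probes 0 were called, against 4.83% of all probes, while 8 of 9 genes were above 0 with a median of 0.39, against 0.02 over all probes. Cd74 read 4.79, 4.85 and 4.38 after LDIR and 4.63, 4.03 and 4.02 in sham, a difference of 0.45 ± 0.24 (95% interval -0.13 to 1.03, limma, adjusted p = 0.775). H2-Aa read 1.37, 1.26 and 0.61 against 1.03, 0.51 and 0.18. Its groups overlapped, with a difference of 0.51 ± 0.31. H2-DMa was the only gene whose groups did not overlap, as for 12.6% of all probes, at 0.50, 0.13 and 0.17 against 0.06, -0.17 and -0.32 (0.41 ± 0.19, limma, adjusted p = 0.775). H2-Oa (0.013) and H2-Ob (-0.029) had intervals of -0.95 to 0.97 and -0.60 to 0.54. Leaving out sham replicate A let Cd74 pass (0.66), where 5.04% of all probes did. Leaving out sham replicate C let the second H2-Ob probe pass, where 10.8% did, so 1 of 12 was near the background. Leaving out LDIR replicate C let both H2-Ab1 probes pass, where 3.95% did. Single arrays thus decided these calls.

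Macrophage genes moved beside them. Of 10 macrophage genes 10 were higher after LDIR at 4 weeks and 6 were called (Emr1, Cd68, Mrc1, C1qa, C1qb, C1qc), by 0.72 to 1.03, though their adjusted p-values were 0.711 to 0.775. The summed macrophage level was 107 to 144 after LDIR and 59.5 to 99.5 in sham. In the pathway list, Ctss, the protease that cuts the invariant chain in these cells, was called higher (0.73 ± 0.23) and Ifng lower (-1.15 ± 0.41). Of 5 epithelial genes 2 were called lower (Krt14 by -0.93 ± 0.30 and Krt5 by -0.73 ± 0.29), and of 3 skeletal muscle genes 3 were lower and 0 called, with a median of -2.13. The part of these cells in the class II values was not tested. Slide also moved with LDIR here, since sham replicates A and B were on slide 1. Within slide 2, where 3 LDIR arrays meet 1 sham array, the median of the 9 genes was 0.56.

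At 8 weeks in BALB/c, each group held 1 of the 3 arrays that stood apart. All 3 sham arrays and LDIR replicate A were on slide 2, and LDIR replicates B and C on slide 3. Within slide 2, 1 array against 3, the median difference of the 9 genes was -0.61, with sham replicate A among the 3. Cd74 read 5.08, 6.89 and 4.94 after LDIR and 6.81, 5.37 and 4.94 in sham. The groups had nearly the same mean and a wide spread (-0.08 ± 0.72). By limma 0 of 12 probes were called against 1.92% of all probes, and the smallest unadjusted value was that of Ciita (-0.34 ± 1.16). Without the 2 arrays, Cd74 differed by -0.15 ± 0.23 with a 95% interval of -0.79 to 0.48, and H2-Aa by -0.31 ± 0.27. The interval of H2-Oa went from -5.01 to 5.34 with them to -0.60 to 0.95 without them. Then 0 of 12 probes were called, where 4.35% of all probes were, and 2 of 9 genes were above 0. The median difference of 0.39 at 4 weeks thus stood beside -0.14 here, and the difference between these times was not tested.

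In SPRET/EiJ at 4 weeks, the direction rested on replicate A. With it, all 9 genes were above sham with a median of 0.80, and 0 of 12 probes were called, against 2.21% of all probes. Cd74 read 7.82, 4.70 and 4.60 after LDIR and 4.64, 5.03 and 5.09 in sham (0.79 ± 0.84, limma, adjusted p = 0.972). In H2-Ab1, replicate A read 7.56 and the other LDIR arrays 4.67 and 4.58, with sham arrays at up to 5.03. In both genes replicate A alone lay above all sham arrays. Without it, the median of the 9 genes was -0.10 and 1 of 9 was above 0, with Cd74 at -0.27 ± 0.23 and Ciita at -0.53 ± 0.27 (limma, adjusted p = 1). Of 12 probes 0 passed there either, where 3.77% of all probes did.

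**Figure D4:**
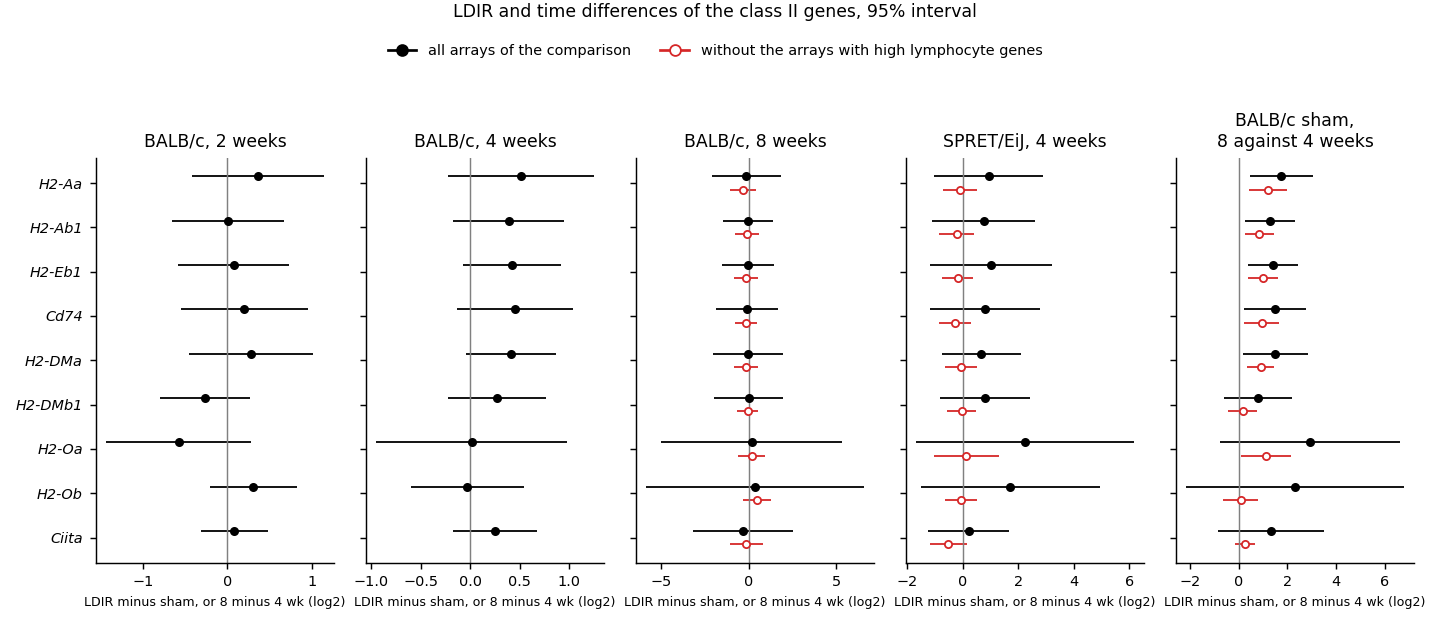
Difference in log2 level (horizontal axis) between LDIR and sham tissue in each strain and time, and between 8-week and 4-week sham tissue of BALB/c, for each class II gene with its 95% interval. The horizontal scales differ between panels. Open red points leave out the arrays with high lymphocyte genes, and every LDIR interval spans 0, while H2-Aa (1.75), Cd74 (1.49) and 3 further genes have intervals above 0 in the last panel with all arrays.

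The LDIR effect was also pooled over the 3 BALB/c times and compared between strains. Pooled, 0 of 12 probes were called by limma against 1.16% of all probes, 0 had an unadjusted p below 0.05, against 3.34%, and Cd74 differed by 0.19 ± 0.28. Without the 2 BALB/c arrays that stood apart, Cd74 was at 0.21 ± 0.17. The difference of the LDIR effects at 4 weeks, BALB/c minus SPRET/EiJ, was called for 0 of 12 probes, against 3.59% of all probes. With all arrays, 1 of 9 genes was above 0 with a median of -0.44. Cd74 was at -0.34 ± 0.96 and Ciita at 0.04 ± 0.70. Without SPRET/EiJ replicate A this difference was called for 1 probe, Ciita (0.77 ± 0.31, limma, adjusted p = 0.902), where 4.56% of all probes were. Cd74 then stood at 0.72 ± 0.34 (limma, adjusted p = 0.902), and 8 of 9 genes were above 0 with a median of 0.60. The direction thus rested on that array. These values share arrays with the LDIR comparisons above, and the BALB/c sham arrays at 4 weeks enter the strain, LDIR and time comparisons alike.

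The clearest change in BALB/c was with time in the sham groups. From 2 to 4 weeks, all 12 probes were above 0 and 0 were called, against 3.04% of all probes, with H2-Aa at 0.62 ± 0.31. T lymphocyte genes were higher in 8 of 8 and lymph node stroma genes in 4 of 4, with medians of 0.63 and 0.55 and 0 called. Of 9 B lymphocyte genes 5 were higher, and of 5 adipocyte genes 0 were higher and 1 was called lower. The part of these cells was not tested. From 4 to 8 weeks, 6 of 12 probes for 5 genes were called, all higher at 8 weeks. Of all probes 13.7% were called, and 5.73% were called higher. H2-Aa read 1.03, 0.51 and 0.18 at 4 weeks and 3.44, 1.91 and 1.64 at 8 weeks. The groups did not overlap, as for 23.4% of all probes, and the difference was 1.75 ± 0.53, or 3.37-fold (limma, adjusted p = 0.24). H2-Eb1 read 6.02, 5.95 and 5.60 at 4 weeks and 8.10, 7.06 and 6.61 at 8 weeks (1.40 ± 0.42, adjusted p = 0.236). Cd74 was 2.80-fold higher, H2-DMa 2.83-fold and H2-Ab1 2.41-fold (limma, adjusted p = 0.294, 0.304 and 0.271). These are the presenting chains, the invariant chain and 1 chain of H2-DM. H2-Oa had the largest difference of the 9 genes (2.92 ± 1.52, groups not overlapping) but did not pass, nor did H2-DMb1 (0.79 ± 0.57), Ciita (1.32 ± 0.89) and H2-Ob (2.31 ± 1.83). The second H2-Ab1 probe was the sixth called (1.41 ± 0.43).

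Sham replicate A, with its lymphocyte genes, was 1 of the 8-week arrays. Without it the rises were smaller and their spread narrower. H2-Aa was at 1.20 ± 0.30, H2-Eb1 at 0.98 ± 0.25, Cd74 at 0.93 ± 0.29, H2-DMa at 0.89 ± 0.22 and H2-Ab1 at 0.84 ± 0.23. Then 7 of 12 probes were called, where 19.5% of all probes were, with H2-Oa (1.11 ± 0.41) as the addition and the smallest adjusted p at 0.104. H2-Ob (0.07 ± 0.29) and Ciita (0.26 ± 0.17) lay near 0. In 1 fit of the 21 arrays, 5 class II probes had an adjusted p below 0.05, among them H2-Eb1 (0.0218), H2-Aa (0.0319), H2-DMa (0.0431) and Cd74 (0.0498), where 11.4% of all probes did. Because the other arrays were left out for their class II values, the spread is narrowed and these p-values are no independent test. With slide as a term in that fit, 1 probe had an adjusted p below 0.05 (H2-Aa, 0.0493), where 5.82% of all probes did. By the thresholds, 7 probes were then called higher and 1, the second measurable H2-Ob probe, lower, where 21.1% of all probes were called.

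Slide and replicate bear on this rise. Sham replicates A and B at 4 weeks were on slide 1, while replicate C and all 8-week sham arrays were on slide 2. Within slide 2, 3 arrays against 1, the median difference of the 9 genes was 1.68. With slide as a term in a limma fit of all 24 arrays, 0 of 12 passed, where 11.9% of all probes did, with H2-Aa at 2.15, Cd74 at 1.69 and H2-Eb1 at 1.65. Without 4-week replicate C, 0 of 12 passed against 10.3% of all probes, with H2-Aa at 1.55, Cd74 at 1.38 and H2-Eb1 at 1.27. Without 4-week replicate B, 2 of 12 passed against 9.73% of all probes. The differences thus kept their direction where the calls were lost. Age at collection and time after sham exposure cannot be told apart in this design.

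Where 13.7% of all probes were called and 5.73% called higher, 4 of 25 pathway genes were called higher at 8 weeks and 0 lower. They were H2-Ea-ps (1.60 ± 0.47), Ctss (2.83-fold), Ifi30 (1.65 ± 0.50) and Creb1 (0.62 ± 0.24). Of 10 macrophage genes 10 were higher and 4 were called (Csf1r, Cd68, C1qa, C1qb, by 0.90 to 1.21). The macrophage sum was 120 to 134 at 8 weeks and 59.5 to 99.5 at 4 weeks, while the adipocyte sum was 753 to 1069 and 1607 to 1944. In the 2 sham arrays at 8 weeks other than replicate A, the B lymphocyte sum was 5.75 and 5.80, against 5.59 to 6.79 at 4 weeks. Of 5 adipocyte genes 4 were called lower and of 3 skeletal muscle genes 3 higher, with medians of -0.89 and 5.19. Of 5 epithelial genes 5 were higher and 0 called (median 0.71). Of 9 dendritic cell genes 8 were higher and 1 was called lower (median 0.40). Lymph node stroma genes were higher in 4 of 4 and T lymphocyte genes in 7 of 8, with medians of 1.53 and 1.43 and 0 called. These list counts hold sham replicate A. The part of these cells in the class II rise was not tested.

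The members tracked each other on the BALB/c arrays, described here without a test because arrays of a group share strain, treatment and time, and many share a slide. Over the 16 BALB/c arrays without the 2 that stood apart, Cd74 had a Pearson r of 0.97 with each of H2-Aa, H2-Ab1 and H2-Eb1 and of 0.94 with H2-DMa. Its r was 0.74 with H2-DMb1, 0.63 with Ciita, 0.60 with H2-Oa and 0.50 with H2-Ob. The presenting chains thus followed the invariant chain most closely, and the r with Cd74 was lowest for the H2-DO chains. These chains were dim, with medians of -3.63 (H2-Oa) and -2.98 (H2-Ob) on the 21 arrays, against 4.64 for Cd74. The part of low signal in the order of these r values was not tested.

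Among 19660 other coding genes, those most like the mean of the 9 genes over all 18 BALB/c arrays were Napsa, Il2rg, Hcls1, Selplg, Wdfy4, Il10ra, Itgb2 and Rac2, with r from 0.982 to 0.989. Most of these are known from leukocytes, such as Il2rg, the shared cytokine receptor chain, and Itgb2, the beta-2 integrin. Over the 16 arrays the leading genes were Grn (r = 0.939), Fgd2 (0.937) and H2-Ea-ps (0.932), followed by Napsa, Tlr2, Irf5, Tgfbi and Prcp. Napsa is thus on both lists, with r of 0.989 and 0.924. Without the 2 arrays high in lymphocyte genes, the r of the first 8 genes was 0.863 to 0.924, while Grn had r = 0.683 with them.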

How the data were processed

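Per the labels, 24 samples were hybridised with Cy3 to 1-colour Agilent SurePrint G3 arrays, and the deposited scanner files (Feature Extraction 10.10.1.1, mm9 annotation) hold spot intensity values already background-corrected by that software. The authors also deposited a table of log2 values, which they had normalized to the 75th percentile. Here the processed intensity was averaged over the spots of a probe, without 3777 outlier spots, set on the log2 scale and reduced by the 75th percentile of the array over its 55681 probes. Centring each probe here on its median over the 24 arrays brought 99.812% of values within 0.01 of the authors' log2 table. That table is thus centred by probe, although the methods describe normalization with no baseline step. Its column medians ran from -0.218 to 0.331. No spot was saturated. The number of arrays, 3 a group, limits the precision.

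Groups were compared with limma 3.58.1 (R 4.3.3), each fit holding only the arrays it compares. The study's methods give the thresholds used (p below 0.05 or 0.001 and 1.5-fold) and describe the samples as biological replicates, which they compared with an unpaired test. Each gene is given by its probe with the highest mean over 24 arrays. The genes, the 25 pathway genes and the marker lists were chosen with earlier results of these data known. The arrays lay on 3 slides of 8. The fit was tested on simulated data for 6 comparisons. With 200 of 55681 probes changed by 2 on the log2 scale, it recovered 93% to 95% of them at the LDIR thresholds and 59% and 60.5% at the strain threshold, but 0% after adjustment over all probes. At the LDIR thresholds it also called 2744 to 2809 of the unchanged probes. The simulated spread came from all 24 arrays, the 3 that stood apart included, and probes varied independently. Recovery in the measured comparisons can therefore differ, and in the sham strain comparison 18.8% of all probes had an adjusted p below 0.05. Replicate letters were checked as pairs: only between LDIR and sham at 2 weeks were all 3 correlations of deviations above 0.1 (0.167, 0.481 and 0.171). Between LDIR and sham of BALB/c at 8 weeks they ran from -0.565 to 0.546. The labels state no pairing, so whether letters are pairs at 2 weeks is not known.

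Alternatives were normexp background correction, quantile normalization, the table the authors deposited, all spots including outliers, a filter to detected probes, the methods' t-test, a replicate block, 1 fit of all arrays, slide as a block and each array left out. Leaving out the 3 arrays high in lymphocyte genes, the fits of the other 21 arrays and values within slide 2 were chosen after seeing the data.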

Additional observations from a re-analysis of the deposited data

How the results depend on the processing

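With normexp correction, quantile scaling, the table the authors deposited, outlier spots kept in or a filter to detected probes, the number of class II probes called stayed within 1.5 times in all 10 comparisons. The sizes moved more with normexp, to 0.75 for Ciita and -1.53 for H2-Ob between the sham strains, and the median of all probes from 4 to 8 weeks went from 0.070 to -0.15. The replicate block left every count where it was, with 3 strain calls in sham tissue, 6 calls from 4 to 8 weeks and 0 in the rest. At 2 weeks the blocked Cd74 difference was 0.20. The labels do not state that the letters are pairs. The strain calls in sham tissue fell from 3 to 0 in the fit of all 24 arrays and with slide as a fixed or random block there, and to 1 with slide in the 21-array fit. Their differences were 1.86 and 1.85 for Ciita, 1.93 and 1.92 for H2-Eb1 and -2.48 and -2.55 for H2-Ob in the 24-array and random-slide fits. With slide fixed, H2-Ob turned to 0.48, while H2-Eb1 was 2.32 and Ciita 2.55. In the LDIR strain comparison the count went from 0 to 3 without the 3 arrays, to 5 in the 21-array fit (14.5% of all probes called) and to 3 with slide (5% called). For the LDIR effect at 4 weeks in BALB/c it went from 0 to 1 (H2-Aa) in the 21-array fit with slide (3.02% called). For the difference of LDIR effects it went to 1 without the 3 arrays and in the 21-array fit (4.56% and 5.04% called), and to 2 with slide (4.19% called). From 2 to 4 weeks it went to 1 with slide in that fit (3.77% called). From 4 to 8 weeks it went from 6 to 3 with the methods' t-test (11.1% called) and to 0 with slide fixed over 24 arrays (11.9% called). Leaving out single arrays gave counts of 0 to 3 for the LDIR strain comparison, 0 to 1 at 2 weeks (H2-Oa without sham replicate B, 3.82% called), 0 to 2 at 4 weeks, 0 to 1 for the difference of LDIR effects, 0 to 2 from 2 to 4 weeks and 0 to 7 from 4 to 8 weeks, and changed no other count. The difference of LDIR effects reached 1 without SPRET/EiJ LDIR replicate A (4.56% called). From 2 to 4 weeks the count was 2 without 2-week sham replicate B and 1 without 4-week sham replicate C (2.74% and 3.43% called). From 4 to 8 weeks it fell to 2 without 4-week sham replicate B and to 0 without replicate C (9.73% and 10.3% called). Cd74 changed sign as follows. In the LDIR strain comparison it was 0.028 without SPRET/EiJ replicate A and in the 21-array fit, with slide it was -0.11, and it ranged from -1.59 to 0.028 as single arrays were left out. In SPRET/EiJ after LDIR it was -0.27 without that array and in both 21-array fits, and ranged from -0.27 to 1.34 as single arrays were left out. At 2 weeks it ranged from -0.051 to 0.44 and at 8 weeks from -0.70 to 0.48 as single arrays were left out. In the difference of LDIR effects it was -0.34 with all arrays and positive without SPRET/EiJ LDIR replicate A, as given above. The causes of these shifts were not tested. Signal over background limits 1 H2-Ob probe, above it on 0 of 24 arrays.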
